A study of Mus musculus with 4 samples.

Results

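The genes examined here were 10 imprinted genes of the mouse, taken as every non-control probe whose RefSeq accession belonged to H19, Meg3, Dlk1, Peg3, Mest, Plagl1, Grb10, Cdkn1c, Zim1 or Sgce. They were covered by 19 of the 56605 probes on the array and by 10 of the 22911 genes that could be named. By the parental allele known to be active in mouse, 5 of the genes are maternally expressed (H19, Meg3, Cdkn1c, Zim1 and Grb10, 10 probes) and 5 are paternally expressed (Dlk1, Peg3, Mest, Plagl1 and Sgce, 9 probes). The study compared global gene expression between ID8G cells, the parental line of GFP-carrying ID8 mouse ovarian cancer (OC) cells, and GO2 cells, which were derived from them in vivo. After i.p. injection of ID8G cells into syngeneic C57BL/6 J mice, GFP-positive cells were sorted from omental tumors, injected again, and sorted once more from the omental tumors that resulted, which gave the GO2 line. Both lines thus express GFP and were cultured in the same medium with 4% FBS, insulin, transferrin and sodium selenite, and total RNA of each was hybridized to 2 Agilent single-color arrays. GO2 is 1 selected line, so the comparison is between these lines and not between groups of tumors or mice, and no treatment was applied to either.

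Imprinted genes carry a parent-of-origin mark, usually DNA methylation laid down in the germ line at a control region, and are transcribed predominantly from the maternal or the paternal chromosome. They lie in clusters in which a single control region governs several genes, often with a noncoding RNA such as H19 or Meg3 expressed from the opposite chromosome to its protein-coding neighbors. Many act on fetal and placental growth: the maternally expressed genes Cdkn1c, an inhibitor of cyclin-dependent kinases, and Grb10, an adaptor that dampens insulin and IGF receptor signaling, restrain it. The array reports the total transcript of a gene and cannot tell which allele it came from.

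The start regions of 4 of the genes are shown first, because Peg3 is the gene on which the comparison turns, Plagl1 is a second gene that was detected, and Mest and Meg3 are a paternally and a maternally expressed gene that were detected on no array. Each window runs from 250 bases before to 50 bases after an annotated transcription start, is written 5′ to 3′ on the strand of the gene, and comes from RefSeq on GRCm38.p6. Capitals mark each CpG, the dinucleotide that carries DNA methylation. Peg3 lies at chr7:6730370-6730669 on the minus strand, and Plagl1 at chr10:13090582-13090881, Mest at chr6:30737800-30738099 and Meg3 at chr12:109540746-109541045 on the plus strand.
Peg3: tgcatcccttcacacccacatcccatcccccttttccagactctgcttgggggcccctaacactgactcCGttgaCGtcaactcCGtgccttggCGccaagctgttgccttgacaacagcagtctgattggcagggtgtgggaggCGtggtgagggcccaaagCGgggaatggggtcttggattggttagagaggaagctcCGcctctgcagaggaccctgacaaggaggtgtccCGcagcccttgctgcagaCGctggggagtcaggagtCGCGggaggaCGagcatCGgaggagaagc
Plagl1: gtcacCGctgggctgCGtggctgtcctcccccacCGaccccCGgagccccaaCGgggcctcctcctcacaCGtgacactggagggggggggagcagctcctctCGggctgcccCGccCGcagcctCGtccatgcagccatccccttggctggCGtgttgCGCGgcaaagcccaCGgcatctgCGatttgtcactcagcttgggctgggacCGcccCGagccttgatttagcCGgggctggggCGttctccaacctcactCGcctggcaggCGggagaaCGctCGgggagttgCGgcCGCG
Mest: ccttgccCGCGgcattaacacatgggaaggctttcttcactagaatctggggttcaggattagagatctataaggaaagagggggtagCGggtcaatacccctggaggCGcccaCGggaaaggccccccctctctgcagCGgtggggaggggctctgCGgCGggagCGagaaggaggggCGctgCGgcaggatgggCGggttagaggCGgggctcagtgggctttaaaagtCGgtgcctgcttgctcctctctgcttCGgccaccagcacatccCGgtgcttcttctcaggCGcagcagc
Meg3: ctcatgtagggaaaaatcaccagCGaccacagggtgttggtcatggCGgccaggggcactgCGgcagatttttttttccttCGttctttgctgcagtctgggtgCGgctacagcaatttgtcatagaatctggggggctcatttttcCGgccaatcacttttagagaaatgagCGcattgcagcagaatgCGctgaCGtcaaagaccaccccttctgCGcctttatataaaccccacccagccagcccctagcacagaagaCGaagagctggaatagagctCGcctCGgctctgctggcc

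The Peg3 window held 13 CpGs and the Plagl1 window 26, against a median of 7 (quartiles 3 and 20) over the 32851 windows of the table. The Mest window shown held 17 CpGs and the Meg3 window 13. Of the 11 windows listed for 7 of the genes, 10 were above that median, and the counts ran from 1 in the other Meg3 window to 45 in a Grb10 window. The other Mest windows held 8 and 17 CpGs (the latter overlaps the window printed), and the windows of Zim1 held 20 and of Dlk1 9, the same count as in the other Grb10 window. The letters TGCCGC, searched on both strands, are the hexamer that the imprint-keeping protein ZFP57 binds when it is methylated, and they occurred in 6 of the 11 windows and in 11.6% of all windows. They occurred in the Plagl1 window and in the Mest and Meg3 windows shown, and not in the Peg3 window. Both overlapping Mest windows are counted among the 6. The hexamer itself holds a CpG, and 10 of the 11 windows were above the median CpG count, so the share over all windows is not a like background. TATAAA, searched in the same way, occurred in 1 of the 11 windows, the Meg3 window shown, and in 13.6% of all windows. The Peg3 window overlapped that of Usp29, a paternally expressed gene transcribed in the opposite direction, by 263 bases, and the annotated starts of this pair lay 164 bases apart. These counts describe the reference sequence, and no methylation was measured in these cells.

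**Figure D1:**
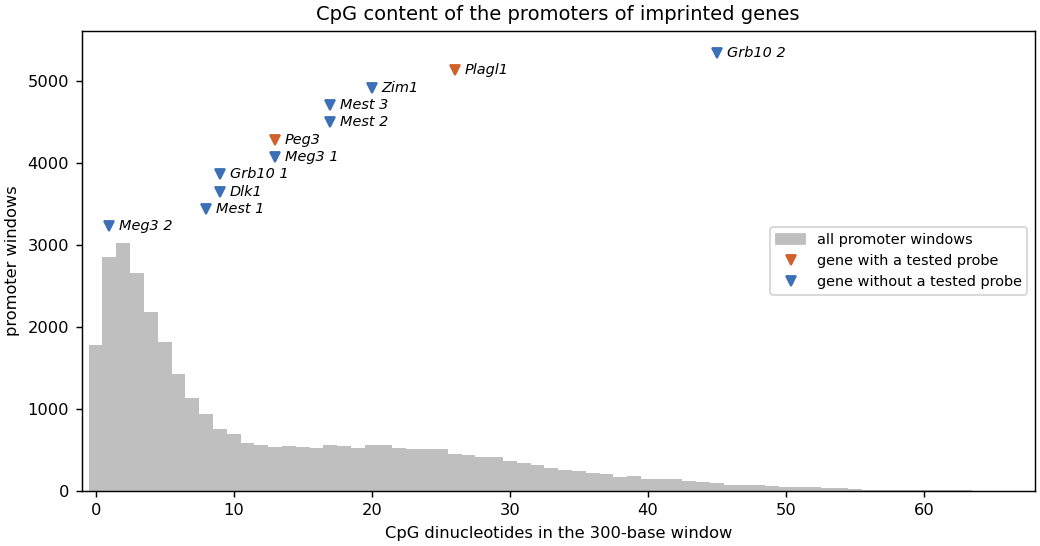
Number of CpGs in 300-base windows around transcription starts. The bars count all 32851 windows of the RefSeq table by CpG number, and the marks above them place the 11 windows of 7 imprinted genes (orange where a probe of the gene was tested, blue where none was, with a height that has no meaning). A total of 10 of the 11 marks lie above the median of 7, with Peg3 at 13 and Plagl1 at 26.

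Signal was read as background-corrected intensity on a linear scale. The level of a probe was its log2 intensity minus the log2 of the 75th percentile of that array, so a level of 0 equals the 75th percentile, which was 675 and 668 in ID8G cells and 635 and 627 in GO2 cells. Between 27502 and 28841 probes per array were well above background by the scanner software, and no spot was saturated. The lowest intensity called well above background was 58.4 and 47.2 in ID8G cells and 46.4 and 43.6 in GO2 cells. Replicate arrays correlated at 0.997 in each line across probes, and arrays of different lines at 0.967 to 0.968, and the number of arrays limits the precision. Nothing states that the replicates came from separate cultures, so p values measure only the spread between these arrays, which may be technical. In RNA of a culture, less RNA per cell and fewer cells that express a gene cannot be told apart.

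Most of the imprinted genes were not detected in either line. Of the 19 probes, 14 (73.7%) gave no signal well above background on any array, against 44.2% of all probes. Of the 10 genes, 6 (H19, Meg3, Zim1, Grb10, Dlk1 and Mest) had no probe well above background on any array. A probe was tested when both arrays of a line, either line, were well above background. This held for 4 of the 19 probes, against 50.1% of all probes, and gave 3 tested genes, Peg3, Plagl1 and Sgce. All 3 are paternally expressed, and 0 of the 5 maternally expressed genes could be tested. Of all named genes, 57.7% had a tested probe. The difference between the maternally and the paternally expressed genes was not tested.

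**Figure D2:**
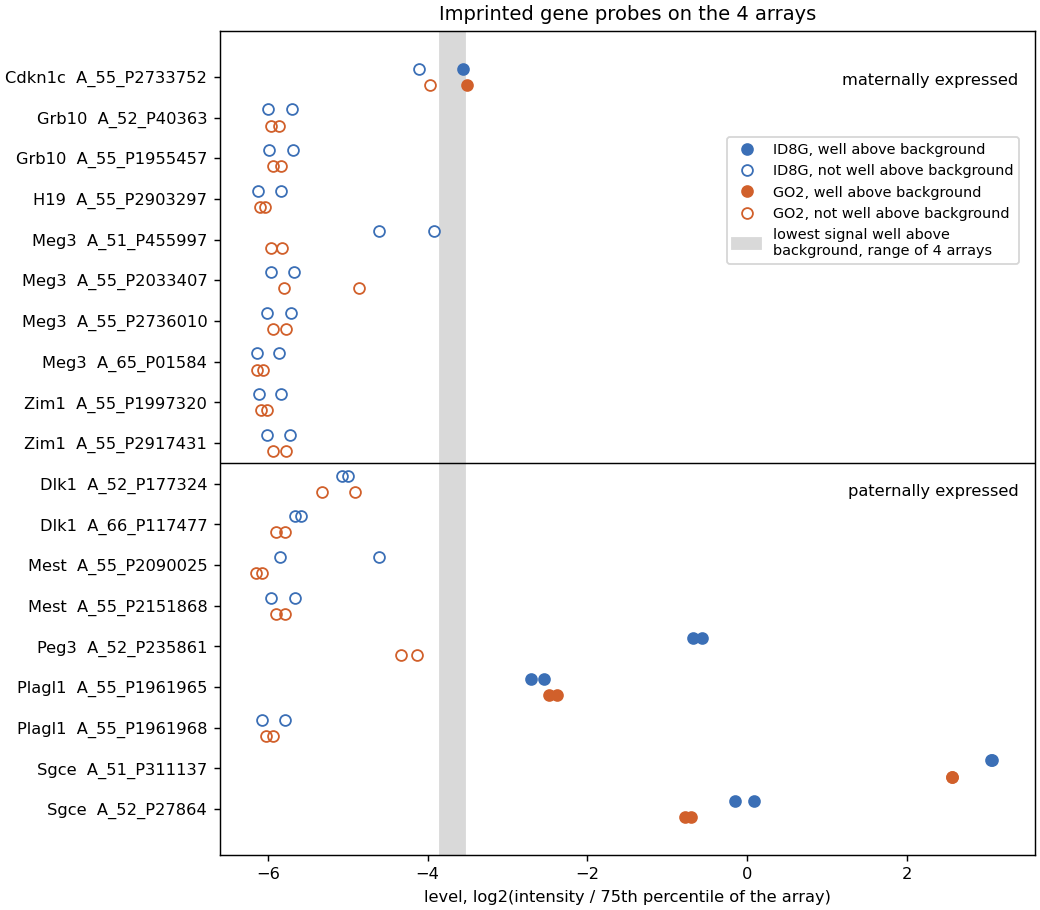
Level of each of the 19 probes on the 4 arrays, as log2 of intensity over the 75th percentile of the array. Filled circles are well above background and open circles are not, blue is ID8G, orange is GO2, and the gray band spans the lowest signal well above background on the 4 arrays. Peg3 lies to the right of the band in ID8G cells and to the left of it in GO2 cells, and most other probes lie to the left of it in both lines.

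Peg3, which encodes a large zinc finger protein linked to fetal growth, maternal behavior and apoptosis, was detected in ID8G cells and was not well above background in GO2 cells. Its single probe (NM_008817) read 421 and 450 in ID8G cells and 36.1 and 31.2 in GO2 cells. Both ID8G arrays were thus high and both GO2 arrays low, with no overlap, and GO2 arrays both lay below both ID8G arrays for 39.7% of tested probes. The level was −0.63 ± 0.08 (SD, n = 2) in ID8G cells and −4.23 ± 0.14 (SD, n = 2) in GO2 cells. The measured log2 difference, GO2 minus ID8G, was −3.61 (SE 0.09, 95% interval −3.86 to −3.35), with a limma adjusted p of 0.000257. Because GO2 cells were not well above background, the fold is a bound: with this processing Peg3 was at least 9.09-fold lower in GO2 cells. The bound sets the ID8G mean against the lowest signal well above background on each GO2 array (or the probe's own signal where that is higher). With normexp background correction, which raises dim signals, the log2 difference was −2.12, a smaller fall than the bound of −3.18. With the methods' t-test, which estimates the spread of each probe from its own 4 values, the adjusted p was 0.119.

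Sgce encodes epsilon-sarcoglycan, a membrane glycoprotein of the dystrophin-associated complex outside as well as inside muscle, and was the gene of the set with signal well above background from both of its probes on all 4 arrays. Probe A_51_P311137 read 5604 and 5586 in ID8G cells and 3747 and 3700 in GO2 cells. Probe A_52_P27864 (both to NM_011360) read 719 and 599 in ID8G cells and 372 and 386 in GO2 cells. For each probe both GO2 arrays were below both ID8G arrays. The log2 difference was −0.50 (SE 0.05, 95% interval −0.63 to −0.36) for the former, with a limma adjusted p of 0.00464. It was −0.70 (SE 0.10, 95% interval −0.99 to −0.42) for the latter, with a limma adjusted p of 0.0120. Both probes thus passed the adjusted p and fell short of the 2-fold change required for a call. An adjusted p below 0.05 with a negative difference of any size was found for 18.9% of all tested probes and 20.0% of named genes, and GO2 arrays both below both ID8G arrays for 39.7% of tested probes, so values of this kind were common across the array. Without the filter on dim probes the adjusted p was 0.0543 for A_51_P311137 and 0.0731 for A_52_P27864. For A_52_P27864 it was 0.0724 without GO2 replicate 1 and 0.0603 without GO2 replicate 2.

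Plagl1 encodes ZAC1, a zinc finger transcription factor that restrains proliferation and acts on other imprinted genes. Probe A_55_P1961965 (NM_009538) read 103 and 115 in ID8G cells and 114 and 120 in GO2 cells, well above background on all 4. The intensities of the lines touched, and after scaling both GO2 levels lay above both ID8G levels, as they did for 34.0% of tested probes. The log2 difference was 0.20 (SE 0.08, 95% interval −0.04 to 0.43), with a limma adjusted p of 0.145. The interval lay within 2-fold in either direction, and it covers only the spread between these arrays. With arrays scaled to the spike-in transcripts it turned to −0.012. The other probe for the same transcript, A_55_P1961968, read between 9.61 and 12.2 and was well above background on no array, so the 2 probes disagreed on whether Plagl1 was detected.

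Among the maternally expressed genes, Cdkn1c gave the signal nearest to detection. Its probe (NM_001161624) read 39.0 and 56.7 in ID8G cells and 40.6 and 55.4 in GO2 cells. It was well above background on replicate 2 of each line and on neither replicate 1, and the arrays of the lines overlapped. The probe of H19, the noncoding RNA expressed from the maternal chromosome beside Igf2, read between 9.12 and 11.8. The Zim1 probes (a zinc finger gene next to Peg3) read between 9.27 and 12.8 and the Grb10 probes between 10.1 and 13.1. These ranges lie near the floor of the arrays and do not show that the genes were silent.

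Meg3, a noncoding RNA of the Dlk1-Meg3 cluster, was covered by 4 probes. Probe A_51_P455997 (NR_027652) read 27.6 and 44.2 in ID8G cells and 11.2 and 10.1 in GO2 cells, and was well above background on none of them. When every probe on the array was fitted without a filter, its log2 difference was −1.63 with a limma adjusted p of 0.0707. The other 3 Meg3 probes were below background on all arrays too, so no direction can be read from the gene. In the same fit Peg3 was the one probe of the 19 that was called, with an adjusted p of 0.00720.

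The remaining paternally expressed genes were below detection. Dlk1 encodes a transmembrane protein of the Delta family that holds back adipocyte differentiation, and its 2 probes read between 10.6 and 21.1. Mest, which encodes a hydrolase-like protein of mesoderm and growing adipose tissue, read between 8.88 and 27.4 on its 2 probes. No value of Dlk1 or Mest reached the lowest signal well above background on any array.

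A gene was called at a limma adjusted p below 0.05 and at least a 2-fold difference, and was represented by its brightest tested probe. By that rule 1 of the 3 tested imprinted genes, Peg3, fell in GO2 cells, against 3.94% of the 13215 named genes tested (3.34% of probes). By the same rule 0 of the 3 rose, against 5.98% of named genes (4.50% of probes), and at an unadjusted p under 0.05 limma and the methods' t-test each also gave 0 higher. The median log2 difference of the 3 was −0.50, against −0.00 over all named genes tested. With 3 genes, nothing particular to the set can be read from these counts. With 2 arrays against 2, an exact two-sided permutation test of a single gene cannot give a p below 0.333, so the calls rest on the spread that limma shares across probes.

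**Figure D3:**
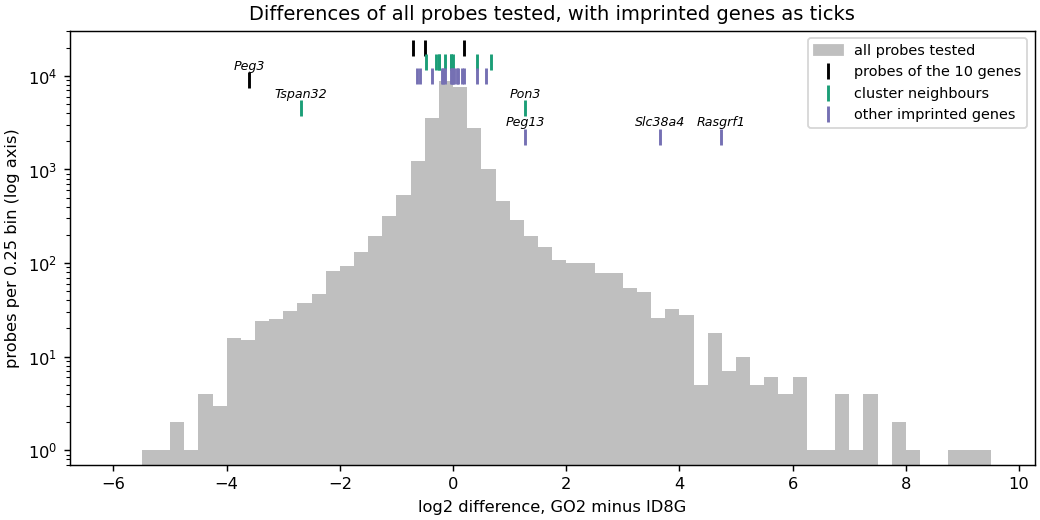
Distribution of the log2 difference, GO2 minus ID8G, over the 28368 tested probes, counted on a log axis, with ticks for the 4 tested probes of the 10 genes (black), their tested cluster neighbors (green) and other imprinted genes (purple); tick height has no meaning. Peg3 is drawn at its measured difference of −3.61 (its bound is −3.18), Sgce at −0.50 and −0.70, and Plagl1 at 0.20.

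The imprinted neighbors of the 10 genes were examined next, because genes of a cluster share a control region. Of 34 such neighbors, 33 had a probe, 20 were well above background on no array, and 12 were tested. The median log2 difference of the 12 was −0.09, 1 rose and 1 fell, against 5.98% and 3.94% of all named genes tested. In the Peg3 cluster, Peg3 was the one gene of the 5 with a probe that was tested. Usp29, which shares its start region with Peg3, and Zim2 were well above background on no array, with Usp29 probes between 8.8 and 12.0. Zim3 was well above background on 1 GO2 array by 1 of its probes, and Zfp264 had no probe by its RefSeq name. A fall of the neighbors along with Peg3 could therefore not be measured.

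In the Peg10-Sgce cluster, Sgce shares a divergent start region with Peg10, a retrotransposon-derived gene of the placenta, and both Peg10 probes (9.5 to 18.4) were well above background on no array. Casd1 (−0.03) and Pon2 (−0.24, limma adjusted p = 0.0400) were not called. Pon3, a paraoxonase gene listed as maternally expressed, read 950 and 926 in ID8G cells and 2142 and 2120 in GO2 cells. Both GO2 arrays were higher, as for 34.0% of tested probes, with a log2 difference of 1.27 (SE 0.05) and a limma adjusted p of 0.000501. Sgce, listed as paternally expressed, and Pon3 thus had differences of opposite sign, and the active allele of neither was measured in these cells. Pon3 did not pass limma treat, a test against a 2-fold difference (adjusted p = 0.0572).

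In the Kcnq1 cluster, which holds Cdkn1c, 6 genes were tested. Tspan32, a tetraspanin gene, fell. Its brightest probe read 4478 and 4517 in ID8G cells and 640 and 672 in GO2 cells, a log2 difference of −2.69 (SE 0.06) with a limma adjusted p of 0.000217. All 4 of its probes were lower, by log2 differences of −2.79 to −2.46. Kcnq1ot1, the paternally expressed noncoding RNA that silences the cluster on its own chromosome, had a log2 difference of −0.04 (adjusted p = 0.595). Osbpl5 had 0.67 with an adjusted p of 0.00504 by its brightest probe and 0.20 by each of its other probes, and was not called. Cd81 (−0.31), Nap1l4 (−0.14) and Tssc4 (0.01) were not called either, and the sign of Tssc4 changed with normexp, median centering, spike-in scaling and without ID8G replicate 1.

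In the remaining clusters little was measurable. In the Dlk1-Meg3 cluster 1 of 7 genes was tested, the maternally expressed noncoding RNA Mirg, with a log2 difference of −0.48 (limma adjusted p = 0.0383) that was under 2-fold. In the Igf2-H19 cluster 0 of 4 genes was tested, and both probes of the growth factor gene Igf2 read between 9.1 and 14.1. Copg2 next to Mest had −0.24 (adjusted p = 0.0482). Ddc next to Grb10 had 0.43 (adjusted p = 0.342), with ID8G cells well above background on 1 array, and between 0.0040 and 0.85 when an array was left out (0.0040 without ID8G replicate 1, 0.85 without ID8G replicate 2).

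**Figure D4:**
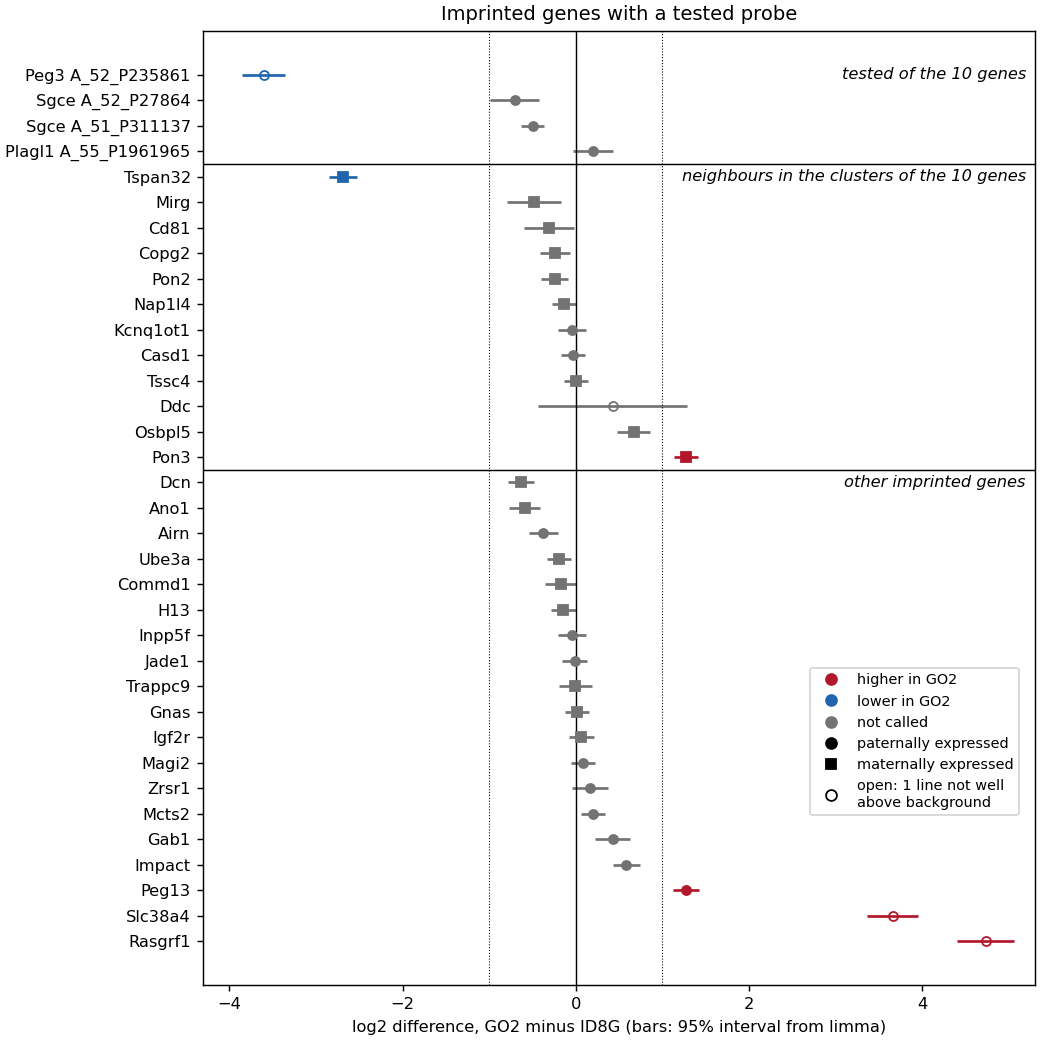
Log2 difference, GO2 minus ID8G, of every imprinted gene with a tested probe, with 95% intervals from limma. Blue is lower and red is higher in GO2 cells by the call, and gray is not called. Circles are genes listed as paternally expressed and squares are genes listed as maternally expressed. Open symbols have a line with fewer than 2 arrays well above background. Peg3 and Tspan32 stand to the left, and Pon3, Peg13, Slc38a4 and Rasgrf1 to the right.

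Imprinted genes outside these clusters were counted in the same way. Of 34, 32 had a probe and 19 were tested, with a median log2 difference of 0.01. Of the 19, 3 rose in GO2 cells and 0 fell, against 5.98% and 3.94% of all named genes tested. At an unadjusted p under 0.05, limma gave 5 lower of 19, against 25.7% of all tested probes, and the methods' t-test 3 lower, against 12.7%. All 3 that rose are paternally expressed. Rasgrf1, an exchange factor for RAS, read 11.6 and 9.4 in ID8G cells and 275 and 247 in GO2 cells. ID8G cells were not well above background, so with this processing it was at least 5.29-fold higher in GO2 cells. The limma adjusted p was 0.000257, and the other Rasgrf1 probe was well above background on no array. Under the alternative processings the lowest log2 difference of Rasgrf1 was 2.30, a smaller rise than its bound of 2.40. Slc38a4, an amino acid transporter gene, read 12.6 and 10.3 in ID8G cells and 136 and 135 in GO2 cells, at least 2.76-fold higher with an adjusted p of 0.000307 by limma. Its other probe was not tested, with 32.8 on 1 GO2 array and 9.6 to 11.8 on the other arrays. The noncoding RNA Peg13 read 214 and 223 in ID8G cells and 495 and 496 in GO2 cells, a log2 difference of 1.27 (SE 0.06) with a limma adjusted p of 0.000637, and it did not pass limma treat (adjusted p = 0.0858). The 3 brightest genes that were not called were Gnas (0.01), Dcn (−0.63, adjusted p = 0.00309) and H13 (−0.14).

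By allele, 17 of 34 further maternally expressed genes with a probe were tested, of which 1 rose and 1 fell, with a median log2 difference of −0.17. Of 31 further paternally expressed genes with a probe, 14 were tested, 3 rose and 0 fell, with a median of 0.18. By the same rule, 5.98% of all named genes tested rose and 3.94% fell. Peg3, which fell, and Rasgrf1, Slc38a4 and Peg13, which rose, are all listed as paternally expressed. Peg3, Rasgrf1 and Slc38a4 passed the filter only through the line where they were high. Of these genes, Peg13 alone was well above background on all 4 arrays, so no direction is read from the paternally expressed genes. Alleles were assigned from what is known in mouse and were not measured in these cells. The difference between the alleles was not tested.

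Genes that lay or keep imprints were nearly all detected, with 19 of 21 tested. Called genes were 0 in either direction, against 5.98% higher and 3.94% lower of all named genes tested. The median log2 difference of the 19 genes was −0.05. At an unadjusted p under 0.05, limma gave 4 higher and 4 lower of 19, against 22.5% and 25.7% of all tested probes, and the methods' t-test 3 and 2, against 11.9% and 12.7%. The 3 brightest were Ehmt2, a histone H3 methyltransferase (0.21, adjusted p = 0.0467), Trim28, the corepressor that ZFP57 recruits (0.08), and Uhrf1, which guides DNA methylation to replicated DNA (0.15). Among genes named after their values were seen, the maintenance methyltransferase gene Dnmt1 had 0.32 (adjusted p = 0.0141). The de novo methyltransferase gene Dnmt3b had 0.80 (adjusted p = 0.00144) by its brightest probe and 0.61 by a further probe. Ezh2, of the polycomb complex, had −0.54 (adjusted p = 0.00566). Dnmt3l, the cofactor of de novo methylation, had a log2 difference of 1.01 with an adjusted p of 0.0534 and was not well above background in ID8G cells. It was called with an intensity trend in the variance and without GO2 replicate 1 (log2 difference 1.34).

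The genes beside Peg3, Plagl1 and Sgce in chromosomal order, imprinted or not, were then taken as 5 tested genes on each side. Around Peg3 the median log2 difference of the 10 genes was −0.03, and the lowest was −1.11 for the olfactory receptor gene Olfr1349 (limma adjusted p = 0.00194), which was the one called. Around Plagl1 the median was −0.07 and 0 of 10 were called. Around Sgce the median was −0.00 and 2 of 10 rose, Pon3 and Col1a2 (7.49, adjusted p = 0.000207), a collagen gene. Of all named genes tested, 5.98% rose and 3.94% fell. Over whole chromosomes the median log2 difference was −0.13 on chromosome 6, which holds Sgce and Mest, and −0.02 on chromosome 7, which holds Peg3, H19, Cdkn1c and Zim1. On chromosomes 10, 11 and 12 it was between −0.01 and −0.00. The fall of Peg3, also at its bound of −3.18, was larger than the difference of any of these 10 genes beside it. That ranking covers only the nearest genes with a tested probe, and whether the fall was local to Peg3 was not tested.

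**Figure D5:**
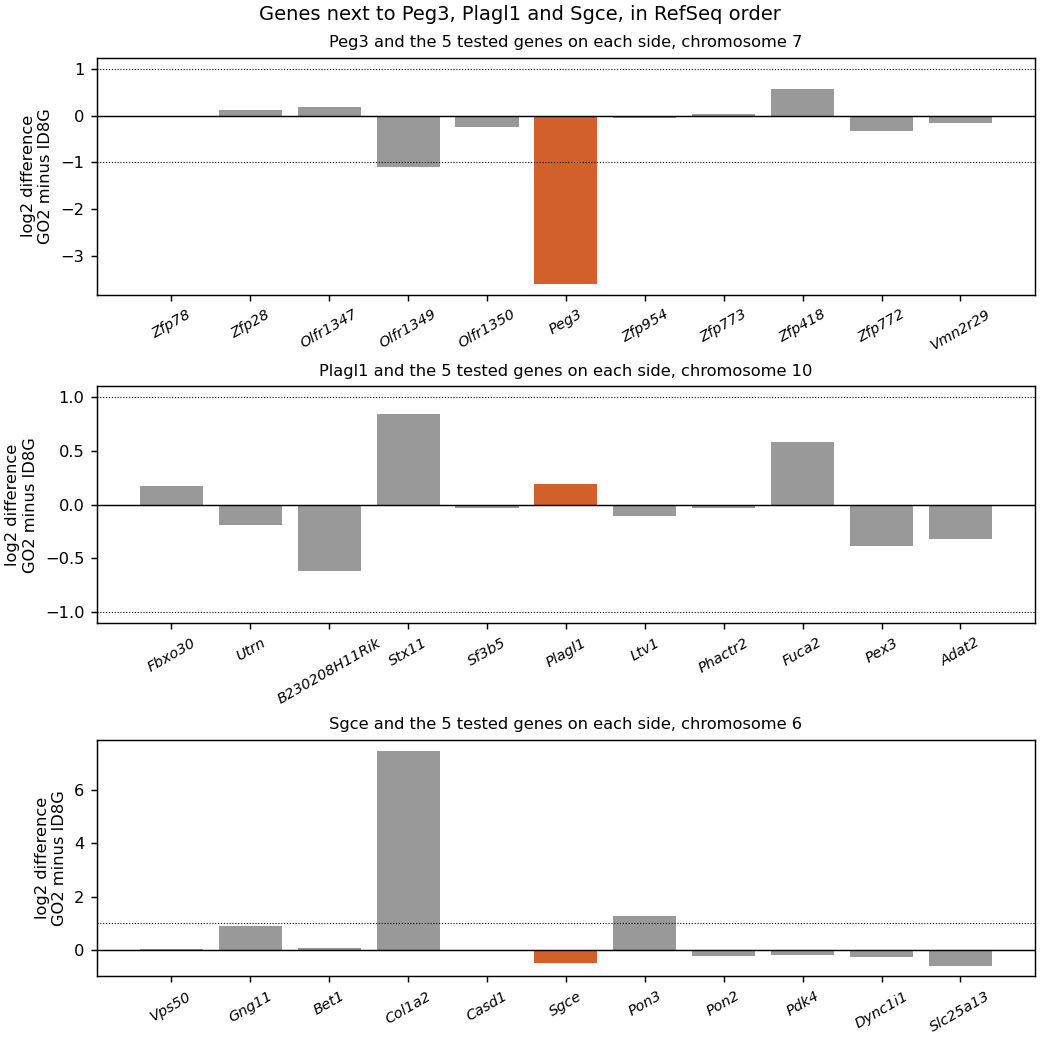
Log2 difference, GO2 minus ID8G, of the 5 tested genes on each side of Peg3, Plagl1 and Sgce in RefSeq order, with the imprinted gene in the center of each panel. Bars are differences of line means over 2 arrays each, dotted lines mark 2-fold, and the vertical scales differ between panels. In the Peg3 panel the neighbors lie between −1.11 and 0.56 with Peg3 at its measured −3.61 (bound −3.18), and in the Sgce panel Col1a2 stands apart at 7.49.

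Markers of several cell types, among them epithelial and ovarian surface cells, are given beside these differences, and the lists differed in direction. By the call, 5.98% of all named genes tested rose and 3.94% fell. Of the 10 fibroblast markers, 6 were tested and 5 rose (Col1a1, Col1a2, Col3a1, Pdgfra and Pdgfrb), Dcn had −0.63, and Lum, Thy1, Fap and Postn were well above background on no array. Pdgfrb was not well above background in ID8G cells and passed the filter only through GO2 cells. Its fold is a bound, at least 2.42-fold higher in GO2 cells with this processing. The summed level of the list, as intensity over the 75th percentile, was 68.6 to 71.4 in ID8G cells and 150.2 to 150.6 in GO2 cells. In ID8G cells the sum was mostly Dcn, which read 45480 and 43198 there, against 1667 and 1679 for Col1a1, the next brightest. Dcn also stands in the list of other imprinted genes. Of the 6 epithelial markers, 4 were tested and Krt19 fell (log2 difference −1.65). Krt18 (−0.81, limma adjusted p = 0.00162), Krt8 (−0.55, adjusted p = 0.00438) and Cdh1 (−0.34, adjusted p = 0.0600) were not called. Krt7 and Epcam were well above background on no array. The sum, to which Krt18 gave most, was 543 to 561 in ID8G cells and 284 to 285 in GO2 cells. Of the 4 mesothelial and ovarian surface markers with a probe, Upk3b rose by 1.08, Msln had a log2 difference of −0.82 (limma adjusted p = 0.00176, under 2-fold), Wt1 had −0.10 and Lrrn4 −0.04. Macrophage and leukocyte markers summed to 20.6 to 23.4 in ID8G cells and 20.6 to 20.7 in GO2 cells, with Ptprc, Adgre1, Lyz2 and Mrc1 well above background on no array. The other 3 of the 7 were detected on all 4 arrays and were not called, with log2 differences of −0.13 (Itgam, the brightest, 11150 to 14017), 0.22 (Csf1r) and 0.19 (Cd68). Of the 5 endothelial markers 4 were well above background on no array. Of the 7 adipocyte markers Fabp4 and Lpl fell, and Adipoq and Plin1 were well above background on no array. Fabp4 was not well above background in GO2 cells and passed the filter only through ID8G cells. By its brightest probe it was at least 6.28-fold lower in GO2 cells with this processing. The part of the fibroblast and epithelial markers in the difference of Peg3 and of the other imprinted genes was not tested.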

How the data were processed

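RNA of ID8G and GO2 cells was measured on 4 arrays, 2 per line, on 1 slide. The deposited scanner output gives spot intensity, background-corrected by the authors' scanner software (Feature Extraction 11.5.1.1) on a linear scale and not normalized between arrays. The deposited value table holds log2 values, of which 99.9% lay within 0.01 of the log2 intensity after the 75th percentile of each array and the median of each probe were subtracted (column medians 0.104, −0.0478, 0.0380 and −0.0486). It was used for 1 alternative, with 0 per-sample columns left unused.

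Spots marked as outliers (132 to 195 per array) were left out and spots of a probe were averaged. Of 56605 probes, 32994 (58.3%) were named through their RefSeq accession. The array was designed on mm9, so GRCm38.p6 served for names, gene order and the promoter windows only. H19, Cdkn1c and Sgce have no window here. The 28368 probes tested were fitted with limma 3.58.1 in R 4.3.3 with the line as the only term, and p values were adjusted by Benjamini-Hochberg over all of them. Named are called genes, the 3 brightest uncalled genes of each list, tested cluster neighbors, and others chosen after their values were seen. The 10 genes and all lists were chosen with earlier results of these data known, and 1 gene of a list is not reported here.

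The fit was tested on simulated data for GO2 against ID8G with 28344 probes, where 189 of 200 changed probes were recovered and 5 unchanged probes were called. Alternatives were normexp on the median spot signal (offset 50), quantile, median and spike-in scaling, other filters, a floor, kept outlier spots, other tests and thresholds, the value table, the mean of the probes of a gene, a replicate block, and each array left out.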

Additional observations from a re-analysis of the deposited data

How the results depend on the processing

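The 4 tested probes of imprinted genes and the named genes were refitted under each alternative. Of 391 such values, 369 kept their direction and their side of the call. Peg3 was called lower under each alternative that tested it except the methods' t-test (−3.61, adjusted p 0.119), with log2 differences of −3.81 to −2.12. Leaving out an array gave −3.70 to −3.51 for Peg3, 0.11 to 0.28 for Plagl1, and −0.50 to −0.49 and −0.83 to −0.58 for the Sgce probes. Plagl1 turned to −0.012 with spike-in scaling, which shifted the median of all probes from −0.02 to −0.23, and the Sgce probes (−0.50 and −0.70) passed with no minimum difference. Tssc4 turned to −0.055 with normexp, −0.023 with median centering, −0.20 with spike-in scaling, and lay between −0.011 (without ID8G replicate 1) and 0.024 when an array was left out. The cause of these changes was not tested.

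The count of imprinted genes lower in GO2 cells was 1, and 0 when all 4 arrays had to be well above background, which removes Peg3, 2 with no minimum difference (3 probes) and 0 by the methods' t-test (2 at an unadjusted p under 0.05). Among cluster neighbors the 1 higher became 0 with limma treat, 2 with no minimum difference and 0 by the t-test, and the 1 lower became 4 with no minimum and 0 by the t-test (unadjusted, 1 higher and 2 lower). Among other imprinted genes the 3 higher became 1 with the filter on all 4 arrays, 6 with no minimum and 0 by the t-test (5 unadjusted), and the 0 lower became 3 with no minimum. Among genes that keep imprints, 0 higher became 1 with an intensity trend and 3 with no minimum, and 0 lower became 3 with no minimum; leaving out an array gave 0 to 1 higher. Among relatives and partners the 2 higher became 1 with limma treat, 4 with no minimum and 0 by the t-test (4 unadjusted), and the 0 lower became 2 with no minimum and 1, Cdkn1a, with the mean of the probes.

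Over all probes 1277 were higher and 947 lower. Normexp gave 850 and 527, the filter on all 4 arrays 666 and 606, limma treat 748 and 440, no minimum difference 4835 and 5348, and the t-test 0 and 3 (3377 and 3599 unadjusted). Spike-in scaling gave 1434 lower and moved the share of calls that were higher from 57.4% to 43.5%. The 7 spike-in transcripts detected on all arrays differed by 0.15 to 0.28 on the log2 scale.

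The replicate numbers did not pair the arrays (correlation of the replicate differences across probes 0.03). In the fit with a replicate block, 1251 probes were higher and 936 lower, and Peg3 kept its call (−3.61, adjusted p 0.00494). The slide could not be a block, since all arrays lie on 1 slide. Signal over background limits what could be measured: 15 of the 19 probes could not be tested, and a fold against a line not well above background is a bound.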

Other observations

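Relatives and partners of the imprinted genes were described in the same way. Of 19 with a probe, 14 were tested, with a median log2 difference of −0.08, or −0.05 with dim genes at their bound. Of the 14, 2 rose in GO2 cells and 0 fell, against 5.98% and 3.94% of all named genes tested. At an unadjusted p under 0.05, limma and the methods' t-test each gave 4 lower of 14, against 25.7% and 12.7% of all tested probes. Sspn, which encodes sarcospan, a membrane partner of the sarcoglycans, read 196 and 218 in ID8G cells and 1854 and 1935 in GO2 cells. Both GO2 arrays were higher, as for 34.0% of tested probes, with a log2 difference of 3.28 (SE 0.08) and a limma adjusted p of 0.000248. Sgcb, encoding beta-sarcoglycan and named after its values were seen, had a log2 difference of 0.83 (adjusted p = 0.00133), and Dag1, encoding dystroglycan, had −0.04. Sgce, with −0.50 and −0.70, thus had the opposite sign to Sspn and Sgcb, and Sgca, Sgcd and Sgcz were well above background on no array.

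Grb14, a relative of Grb10 that also binds the insulin receptor, rose, with 371 and 401 in ID8G cells and 983 and 906 in GO2 cells. The log2 difference was 1.38 (SE 0.07), with a limma adjusted p of 0.00100, and it did not pass limma treat (adjusted p = 0.0724). The relatives of Cdkn1c had log2 differences of −0.55 (Cdkn1b, adjusted p = 0.00471) and −0.63 (Cdkn1a, adjusted p = 0.00972, named after its values were seen), both under 2-fold. A dimmer Cdkn1a probe was not well above background in GO2 cells and was at least 1.33-fold lower there (limma adjusted p = 0.0320). Igf1r, the receptor whose signaling Grb10 dampens, had −0.12 (adjusted p = 0.130).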
